A study of Mus musculus with 2 samples.

Results

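The 10 genes described here carry signals between myeloid cells and T cells, or restrain the myeloid cell itself. They were taken by gene symbol as a named list, and all 10 had a probe set of their own among 22180 genes on the array. Levels were measured in inflammatory monocytes with high Ly6C, sorted as CD11b+ cells lacking CD3 and Ly6G from the colon lamina propria of C57BL/6 mice. One group was wild type (WT) and the other lacked Nlrp6, a NOD-like receptor, and the labels give that allele only as Nlrp6-/-. Mice of both groups had received the carcinogen azoxymethane at 10 mg/kg and, from day 5, 2% dextran sodium sulfate for 5 days to injure the colon epithelium, and cells were taken on day 10. Each genotype was hybridised to 1 Affymetrix Mouse Gene 2.1 ST array, so differences have no error and no p-value and describe these 2 samples. The labels give neither the number, age and sex of the mice nor whether RNA was pooled.

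T cells need a second signal besides antigen. CD80 and CD86 on the presenting cell bind CD28, which activates, and CTLA-4, which restrains, and ICOSL binds ICOS. PD-L1 (Cd274) and PD-L2 (Pdcd1lg2) bind the inhibitory receptor PD-1. CD40 is a receptor of the TNF receptor family through which CD40 ligand of activated T cells stimulates myeloid cells, and CD83 is a surface protein of mature antigen-presenting cells. TIM-3 (Havcr2), CD200R1 and SIRP alpha (Sirpa) are receptors by which the myeloid cell itself is held back. Myeloid cells of inflamed gut are known to carry many of these proteins.

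The PD-1 ligands and the 3 inhibitory receptors among the 10 genes were lower in Nlrp6-/- than in WT, while the ligands of CD28 and Cd83 were nearly level. Levels are log2 values after robust multiarray averaging, and differences are Nlrp6-/- minus WT on that log2 scale. Of the 10 genes 7 were lower and 3 higher, and 48.4% of the 9525 genes above the detection floor on at least 1 array were lower by any amount. The floor, set by olfactory and vomeronasal receptor genes, was 3.26 on the WT and 3.23 on the Nlrp6-/- array, and the 10 genes were above it on both. No member reached 1.5-fold in either direction (0 of 10), where 6.22% of all genes were higher by that much and 3.06% lower. At 2-fold the count was also 0 of 10, beside 1.62% of all genes higher and 0.325% lower. At 1.25-fold, a threshold added after the values were seen, 5 of 10 were lower and 0 higher, beside 13.2% and 16.9% of all genes. The median difference of the members was -0.24, against 0.01 over all genes above the floor, and it was -0.09 over the 7 members that were above a stricter floor, at percentile 99 of the receptor genes. Pdcd1lg2, Havcr2 and Cd200r1 were below that floor on both arrays. In RNA of sorted cells, fewer cells of a type and less RNA per cell cannot be told apart.

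**Figure D1:**
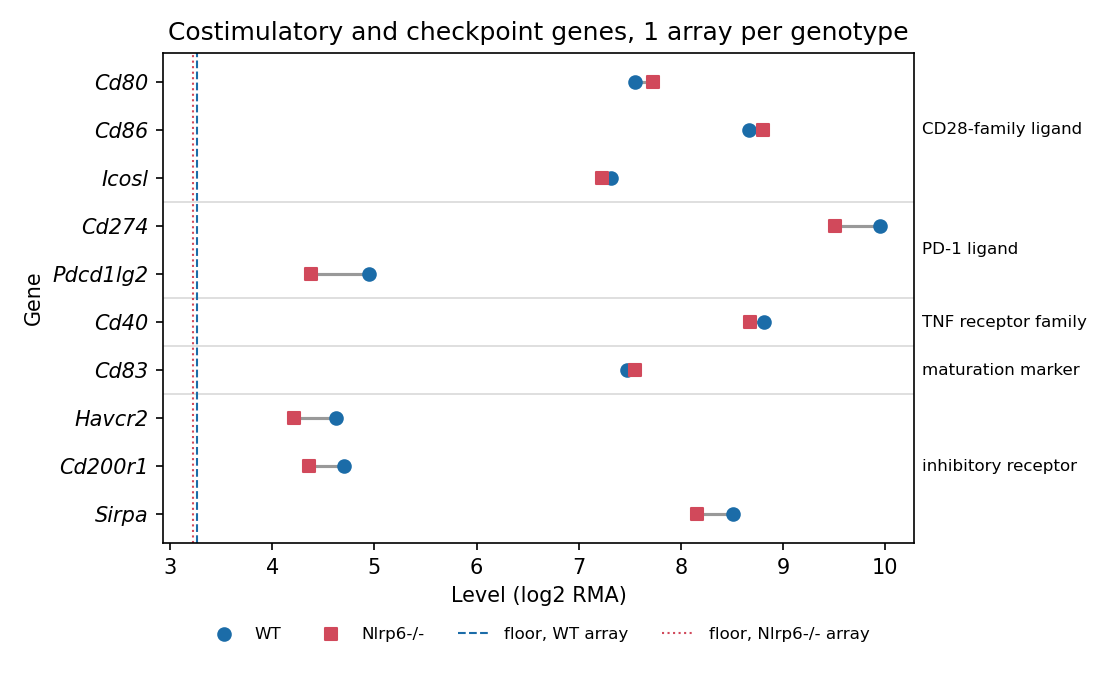
Level of each of the 10 genes (horizontal axis, log2) on the WT array (blue circle) and the Nlrp6-/- array (red square), grouped by role, with both detection floors as vertical lines. The red squares of the PD-1 ligands and the inhibitory receptors lie to the left of their blue circles, by 0.34 to 0.57.

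As a guide to technical spread, the silent receptor genes differed between the arrays with an SD of 0.19 (n = 1390 genes), which is smaller than the differences of 5 members and larger than those of the other 5. This is the scatter of dim genes, not the spread between mice. Another guide comes from 422 genes that had more than 1 probe set clear of both floors: the differences within a gene spread over a median of 0.31, and over 0.79 at the 90th percentile. Each member had a single probe set, so no such check could be made for it, and every member's difference was below 0.79 in size.

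Of the ligands of the CD28 family, Cd80 was at 7.55 in WT against 7.72 in Nlrp6-/-, a difference of 0.18. Cd86, the other ligand of CD28 and CTLA-4, was at 8.67 in WT against 8.81 in Nlrp6-/-, a difference of 0.14. Both were slightly higher in Nlrp6-/- by less than the SD of the silent genes. Icosl was at 7.31 in WT against 7.23 in Nlrp6-/-, a difference of -0.09. Ordered by difference, Cd80 held place 2777 from the highest of 9525 genes and Cd86 place 3114, well inside the bulk of the array.

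Their partners on T cells were partly above the floor, although the sort had removed CD3-positive cells. Cd28 was at 5.48 in WT against 5.64 in Nlrp6-/-, and Ctla4 at 4.06 and 4.57, a difference of 0.51. Icos was at 5.56 and 5.63, and Cd40lg was below the floor on both arrays. Of the CD3 chain genes, Cd3e was at 4.21 in WT against 3.98 in Nlrp6-/-, Cd3d at 4.52 and 4.99, and Cd3g at 3.33 and 3.53. None of the T and NK cell markers differed by 1.5-fold, and the summed linear level of the 8 measured T and NK cell markers was 111 in WT and 122 in Nlrp6-/-. How far remaining T cells contributed to these partner genes was not tested.

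Cd274, which encodes PD-L1, was at 9.95 in WT against 9.51 in Nlrp6-/-, a difference of -0.44 or 1.36-fold lower. Pdcd1lg2, which encodes PD-L2, was at 4.95 in WT against 4.38 in Nlrp6-/-, a difference of -0.57 or 1.49-fold lower. Pdcd1lg2 had the largest difference among the 10 genes and lay just inside the 1.5-fold limit of 0.58, at place 318 from the lowest of 9525 genes, while Cd274 was at place 680. With renewed quantile normalization or with a loess curve subtracted, 1 member was at least 1.5-fold lower instead of 0, namely Pdcd1lg2. With a stricter floor, at percentile 99 of the silent genes and equal to 5.08 in WT against 4.90 in Nlrp6-/-, Pdcd1lg2 was below it on both arrays and gave no value. Of the partners, Pdcd1, the gene of PD-1 itself, was at 3.97 in WT against 3.89 in Nlrp6-/-, and Rgmb, a further binding partner of PD-L2, at 3.62 and 3.49.

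Cd274 and Pdcd1lg2 are next to each other on mouse chromosome 19 in the RefSeq gene order. The next protein-coding gene on the side of Pdcd1lg2, Ric1, was at 8.52 in WT against 7.91 in Nlrp6-/-, a difference of -0.61. On the side of Cd274, Plgrkt, a plasminogen receptor gene, was at 7.27 and 7.71, a difference of 0.44. Ermp1, one gene beyond Ric1, was at 5.28 and 5.25. So 3 adjacent genes had differences of -0.61 to -0.44, while the genes on either side of them were at 0.44 and -0.02. This stretch was named after its values were seen, and such runs of adjacent genes were not counted over the array.

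Promoters are shown for this neighbouring pair, for Havcr2 as a further lower gene and for Cd80 as the highest member, to set their bases beside the differences. The windows are the 250 bases before the RefSeq transcript start in build GRCm38.p6, 5′ to 3′, with motif matches on either strand in capitals; 5 of the 10 genes had a window in the table.
Cd274 promoter (chr19:29367188-29367437, plus strand): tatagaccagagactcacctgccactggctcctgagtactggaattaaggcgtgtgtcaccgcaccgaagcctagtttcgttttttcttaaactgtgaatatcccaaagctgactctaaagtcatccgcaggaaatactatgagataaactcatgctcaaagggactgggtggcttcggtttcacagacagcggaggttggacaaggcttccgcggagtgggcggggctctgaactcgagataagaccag
Pdcd1lg2 promoter (chr19:29410669-29410918, plus strand): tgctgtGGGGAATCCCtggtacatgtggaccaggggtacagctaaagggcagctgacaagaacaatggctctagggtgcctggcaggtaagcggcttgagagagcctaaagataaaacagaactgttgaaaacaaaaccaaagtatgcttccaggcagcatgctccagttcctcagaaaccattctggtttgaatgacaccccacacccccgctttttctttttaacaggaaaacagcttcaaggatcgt
Havcr2 promoter (chr11:46454681-46454930, plus strand): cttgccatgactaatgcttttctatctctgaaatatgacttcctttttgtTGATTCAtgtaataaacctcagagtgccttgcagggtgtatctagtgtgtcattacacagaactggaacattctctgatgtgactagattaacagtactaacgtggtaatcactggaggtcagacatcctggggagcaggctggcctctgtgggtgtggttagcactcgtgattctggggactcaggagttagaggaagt
Cd80 promoter (chr16:38458683-38458932, plus strand): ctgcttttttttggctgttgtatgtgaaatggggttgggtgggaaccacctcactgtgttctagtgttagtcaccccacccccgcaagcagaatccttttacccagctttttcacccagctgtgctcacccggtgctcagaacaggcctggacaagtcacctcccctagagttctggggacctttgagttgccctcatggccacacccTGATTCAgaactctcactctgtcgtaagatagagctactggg
The motifs searched were an interferon-stimulated response element written as GAAANNGAAA, a gamma-activated site written as TTCNNNGAA, an AP-1 site written as TGANTCA and the NF-kB consensus. The letters TGATTCA were found in Havcr2, starting at position -200 from the transcript start, and in Cd80 at -42. They match TGANTCA with T at N, where the pattern takes any base, and whether they are AP-1 sites was not tested. Of all 32851 windows 6.75% held a match of that pattern. An NF-kB consensus match was found in Pdcd1lg2 at -244 and in Icosl (window not shown) at -111, and 7.25% of all windows held one. Neither interferon motif, as written, was in any of the 5 windows, against 2.98% of all windows for the first and 7.02% for the second. Cd274 had no match to the patterns searched in its 250 bases, and sites written in other letters were not searched. The matches are a description of letters in these windows.

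**Figure D2:**
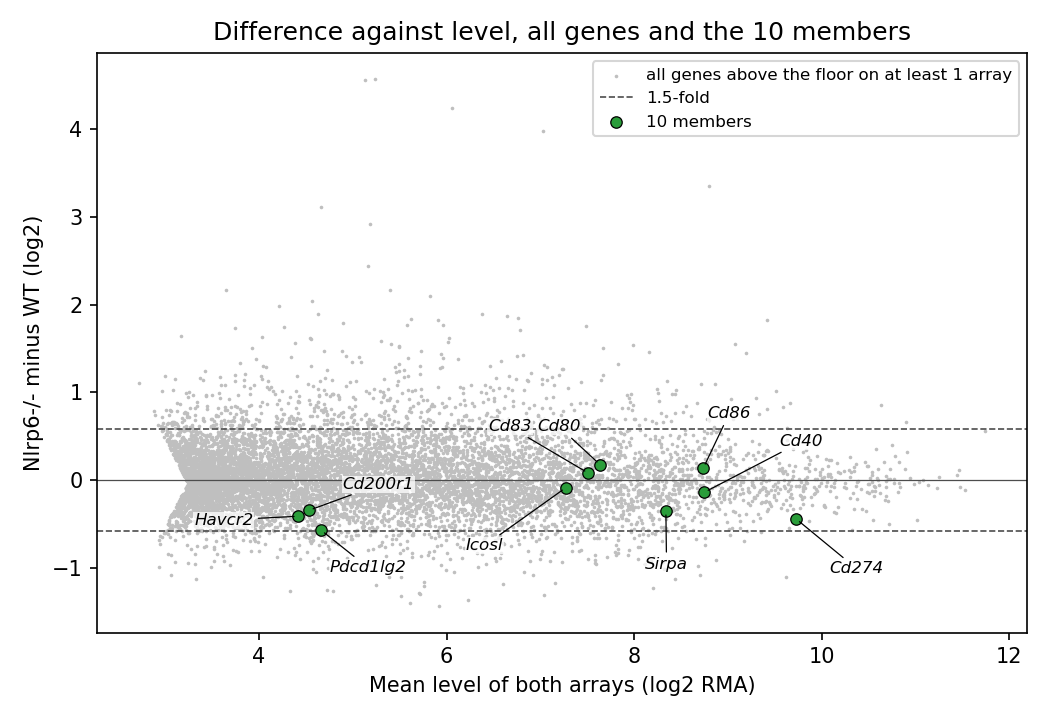
Difference between the arrays (vertical axis, Nlrp6-/- minus WT, log2) against mean level (horizontal axis, log2) for the 9525 genes above the floor on at least 1 array (grey) and the 10 members (green), with dashed lines at 1.5-fold. All 10 members lie between the dashed lines, and Pdcd1lg2 lies nearest to the lower one at -0.57. Genes below the floor on 1 array are drawn at their measured difference.

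Genes that act on the surface amount of these ligands were lower as a group. Of 7 listed genes 6 were above the floor, all 6 were lower in Nlrp6-/-, and 3 of them by at least 1.5-fold, with a median of -0.50. Of all 9525 genes above a floor, 48.4% were lower by any amount and 3.06% by at least 1.5-fold. Spop, an adaptor that in human cells directs PD-L1 to degradation, was at 8.18 in WT against 7.43 in Nlrp6-/-, a difference of -0.74. Adam17, a protease that releases many membrane proteins, was at 8.46 and 7.84, a difference of -0.62. Cmtm6, which in human cells keeps PD-L1 at the surface, was at 7.05 and 6.44, also a difference of -0.62. Marchf1, a ubiquitin ligase that lowers surface CD86 and MHC class II, was at 4.79 in WT against 4.40 in Nlrp6-/-, and Adam10, which releases ICOSL, was at 6.99 and 6.75. The list holds genes that raise and genes that lower surface ligand, and the arrays measured RNA, not surface protein.

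Cd40 was at 8.82 in WT against 8.68 in Nlrp6-/-, a difference of -0.14. Of the 9 measured genes of CD40 signalling, 6 were lower and 3 higher, none by 1.5-fold, with a median of -0.13. Traf2, an adaptor bound by CD40, had the lowest difference of them, at 5.95 in WT against 5.40 in Nlrp6-/-, a difference of -0.55. Birc2, a ubiquitin ligase recruited by TRAF2, was at 7.69 and 8.02, and Map3k14, the kinase NIK of the non-canonical NF-kB pathway, at 4.76 and 4.99. The NF-kB subunits of that pathway were little apart, with Nfkb2 at 8.11 and 7.92 and Relb at 6.50 and 6.31. Cd83, whose protein opposes MARCH1 in dendritic cells, was at 7.47 in WT against 7.55 in Nlrp6-/-, a difference of 0.08 and the smallest of the 10.

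Each of the 3 inhibitory receptors among the members was lower in Nlrp6-/-. Havcr2, which encodes TIM-3, was at 4.62 in WT against 4.21 in Nlrp6-/-, a difference of -0.41 or 1.33-fold. Cd200r1 was at 4.71 and 4.36, a difference of -0.34 or 1.27-fold. Sirpa was at 8.51 and 8.16, a difference of -0.35, also 1.27-fold. Ordered from the lowest difference, Havcr2 held place 792, Sirpa 1095 and Cd200r1 1135 of 9525 genes. The levels of Havcr2 and Cd200r1, like that of Pdcd1lg2, were below the stricter floor on both arrays, so of these 3 receptors Sirpa alone was above it.

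The binding partners of these receptors went the other way in part. Ceacam1, an adhesion molecule that binds TIM-3, was at 6.43 in WT against 7.72 in Nlrp6-/-, a difference of 1.29 or 2.44-fold higher. Lgals9, the gene of galectin-9, another TIM-3 ligand, was at 7.22 and 7.88, a difference of 0.66. Hmgb1, a nuclear protein that binds TIM-3 when released, was at 8.65 in Nlrp6-/- with a difference of -0.35 in the probe set used, and its second probe set differed by -0.16. Cd200, the ligand of CD200R1, was at 6.42 and 6.80, and Cd47, the ligand of SIRP alpha, at 9.24 and 9.53, differences of 0.38 and 0.29. Among the 6 partners found on many cell types, 4 were higher and 2 lower, and 2 of the higher but 0 of the lower genes were past 1.5-fold, with a median of 0.34. Of all genes above a floor, 4910 of 9525 were higher by any amount. At 1.5-fold, 6.22% of them were higher and 3.06% lower.

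Colon epithelium also expresses Ceacam1 and Lgals9, and markers of epithelium were higher in the Nlrp6-/- sample. Of the 10 epithelial markers 8 were above a floor, and these 8 were higher there. At least 1.5-fold higher were 5 of them, beside 6.22% of all genes. Vil1 and Krt19 were above the floor on the Nlrp6-/- array only, which all but fixed their direction. Krt19 counted among the 5 at its bound of 0.71. The summed linear level of the list was 225 in WT and 419.7 in Nlrp6-/-. Epcam was at 4.71 and 5.74, and Cdh1 at 3.96 and 5.43 in the probe set used, a difference of 1.47, against 0.29 in its other probe set. Lgals4 differed by 1.57 and Krt8 by 0.99. In WT, Vil1 was at 3.01 and Krt19 at 3.21, both below the floor, against 3.37 and 3.98 in Nlrp6-/-. Stromal and endothelial cells carry Cd200, and 8 of their 10 markers were higher and 2 lower. Over all genes above a floor, 4910 of 9525 were higher by any amount. The summed level of these markers was 628 in WT and 1209 in Nlrp6-/-. Among them the endothelial markers Cdh5, Pecam1 and Kdr differed by -0.39, 0.24 and 0.19. Mgp differed by 1.45, Dcn by 0.98 and Col1a2 by 1.19 in the probe set used and 0.22 in its other one, while Col1a1 differed by 0.05 and Col3a1 by 0.32. The CD11b gate of the sort is meant to leave out epithelial, stromal and endothelial cells, and their part in the partner genes was not tested.

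**Figure D3:**
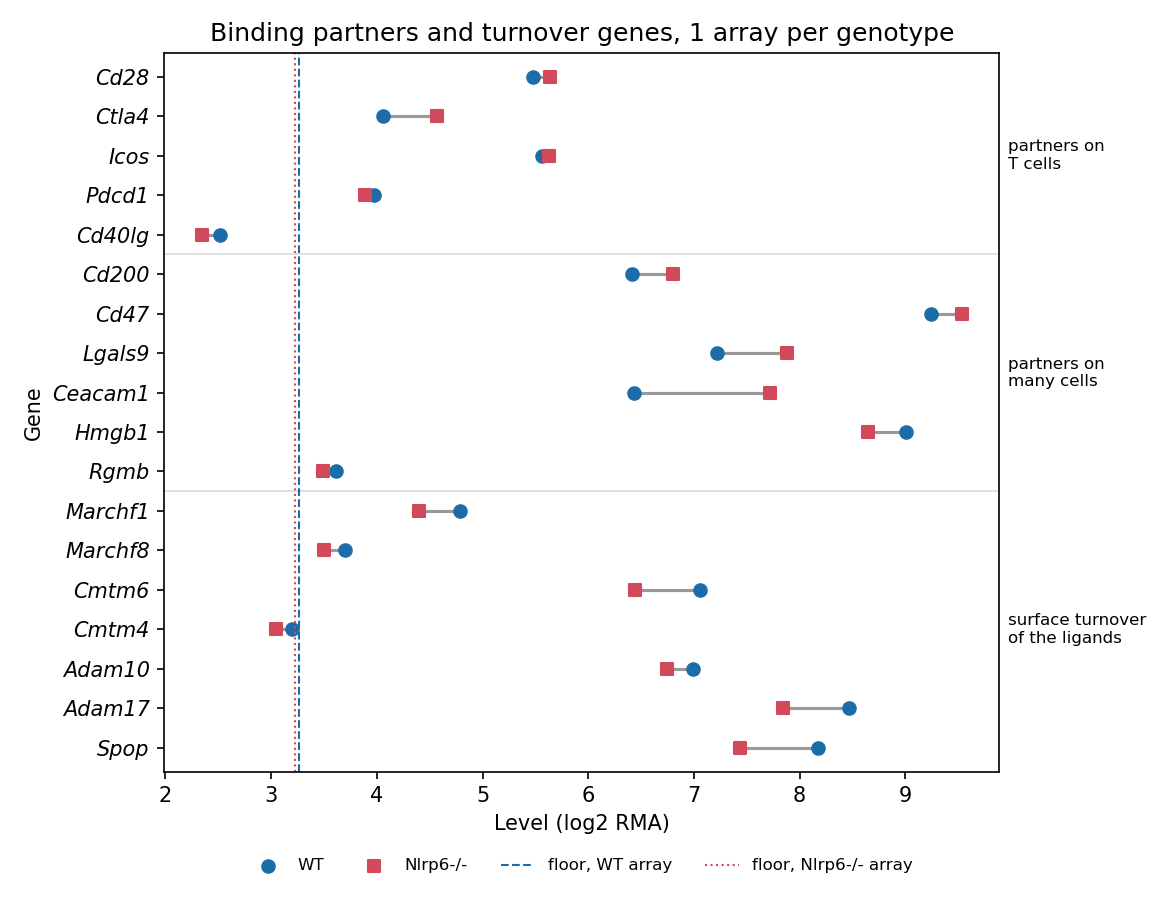
Levels (horizontal axis, log2) of binding partners and of genes that act on surface ligand, on the WT array (blue circle) and the Nlrp6-/- array (red square), with both floors as vertical lines. Ceacam1 has the widest gap, from 6.43 to 7.72, and the turnover genes above the floor have their red squares on the left.

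The signalling partners of the inhibitory receptors were close to level. Of 9 genes 8 were above the floor, 6 lower and 2 higher, none by 1.5-fold, with a median of -0.10. Ptpn6, the phosphatase SHP-1 recruited by SIRP alpha, was at 8.36 in WT against 8.29 in Nlrp6-/-, and Ptpn11, the related SHP-2, at 6.00 and 6.06. Fyb, an adaptor found with SIRP alpha in macrophages, was at 9.52 and 9.27. Dok2, the adaptor of CD200R1, was below the floor on both arrays, while Rasa1, a GTPase-activating protein further down that route, was at 7.10 and 7.04.

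Genes of the same families as the inhibitory receptors were measured apart from the members. They were listed by family and are not all inhibitory themselves. Sirpb1a was at 7.70 in WT against 7.73 in Nlrp6-/-, and Sirpb1c at 6.89 and 7.36, so neither was lower as Sirpa was. Cd200r2, Cd200r3 and Cd200r4, and Havcr1, Timd2 and Timd4, were below the floor on both arrays. Inhibitory receptors of myeloid cells outside these families were mostly higher: of 13 measured, 10 were higher and 3 lower, with a median of 0.29. Over all genes above a floor, 4910 of 9525 were higher. At least 1.5-fold higher was 1 of the 13, beside 6.22% of all genes. That gene was Milr1, a receptor that restrains mast cells, at 6.14 in WT against 6.84 in Nlrp6-/-. Pirb was at 9.24 and 9.58, Fcgr2b, the inhibitory Fc receptor, at 7.09 and 7.38, and Lilrb4a at 10.65 and 10.47. The 3 inhibitory receptors among the members thus had differences of -0.41 to -0.34, beside a median of 0.29 in this list. The list itself ranged from -0.18 for Lilrb4a to 0.70 for Milr1, and Havcr2 and Cd200r1 were below the stricter floor. This contrast could not be tested with 1 array per genotype.

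Further costimulatory and checkpoint ligands were measured for context. Of 15 listed genes 8 were above a floor, 6 of them higher and 2 lower, none by 1.5-fold, with a median of 0.19. Vsir, the gene of the checkpoint protein VISTA, was at 5.87 in WT against 6.33 in Nlrp6-/-, Cd24a at 8.47 and 9.03, and Cd48 at 6.85 and 7.27. Tnfsf9, the gene of 4-1BB ligand, was at 8.50 and 8.75. Tnfsf4, Tnfsf18, Cd70, Tnfsf14, Nectin2, Btn1a1 and Btn2a2 were below the floor on both arrays. Cd274 and Pdcd1lg2 were thus at -0.44 and -0.57 beside a list of related ligands with a median of 0.19, and this contrast was not tested either. With the stricter floor that median was 0.43, and Pdcd1lg2 had no value.

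Interferons and NF-kB drive several of these genes, PD-L1 among them. Of 16 measured regulators 8 were higher and 8 lower, with a median of 0.03, and 2 were at least 1.5-fold higher. These were Stat2, at 7.37 in WT against 8.08 in Nlrp6-/-, and Irf9, at 6.18 and 6.89, both parts of the factor that type I interferon activates. Irf1, which binds the Cd274 promoter in interferon-treated human cells, was at 7.48 and 7.21, a difference of -0.27. The interferon-gamma receptor chains Ifngr1 and Ifngr2 differed by 0.18 and 0.08, and Rela, an NF-kB subunit, was at 8.62 and 8.43.

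**Figure D4:**
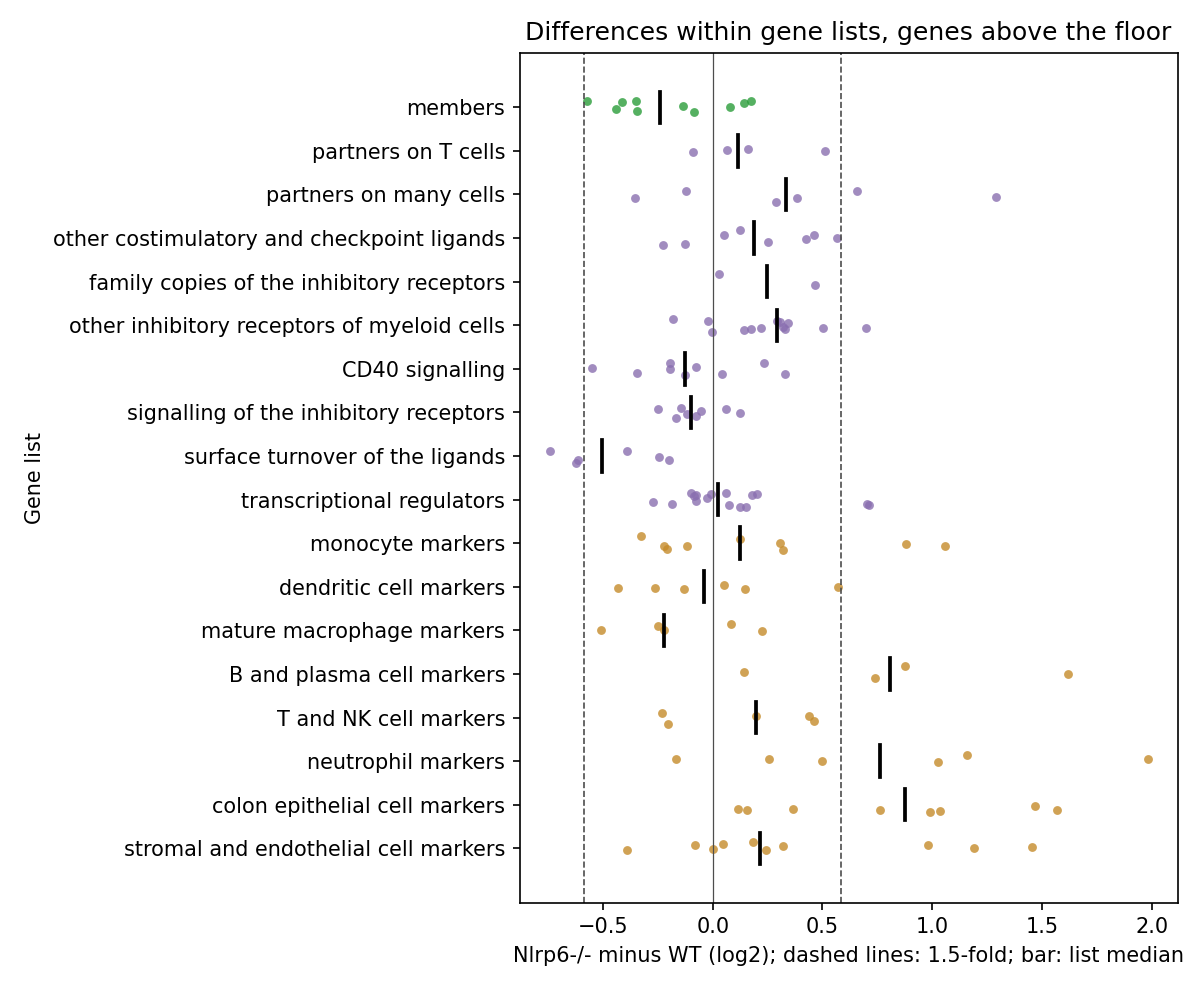
Difference of each gene above a floor (horizontal axis, Nlrp6-/- minus WT, log2; genes below the floor on 1 array at their measured difference) in the 10 members (green), the related lists (purple) and the cell type markers (orange), with the median of each list as a black bar and dashed lines at 1.5-fold. The members' median is -0.24 and that of the turnover genes -0.50, while the epithelial, B and plasma cell and neutrophil markers have medians of 0.88, 0.81 and 0.76. The epithelial markers Vil1 and Krt19 and the neutrophil markers Retnlg and Cxcr2 entered through the Nlrp6-/- array alone.

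Monocyte markers were present on both arrays: Ly6c2 was at 9.06 in WT against 9.36 in Nlrp6-/-, Itgam, the gene of CD11b, at 8.46 and 8.25, and Ccr2 at 5.98 and 6.30. Of 9 measured monocyte markers 5 were higher and 4 lower, with Fcgr1 at 7.05 and 7.93 and F13a1 at 5.38 and 6.44, and the summed linear level was 5140.0 in WT and 4774 in Nlrp6-/-. Dendritic cells and B cells carry most of the 10 proteins too, and markers of both lay on either side of the floor. Over the dendritic list 6 of 11 measured markers were above a floor, 3 of them higher and 3 lower in Nlrp6-/-. The summed linear levels were 578 in WT and 525 in Nlrp6-/-. In the probe sets used, Dpp4 had the largest difference of the 6, 0.57, at 3.83 in WT and 4.40 in Nlrp6-/-. Fscn1 was at 3.43 and 3.58, Itgax at 5.41 and 5.46, Ccr7 at 8.12 and 7.99, and Ccl22 at 7.17 and 6.91. Cd209a was at 5.55 and 5.11 in the probe set used and differed by 0.61 in its other one, while Flt3 and Zbtb46 were below the floor on both arrays. Over the B and plasma cell list 4 of 8 were above a floor, with sums of 712 and 1302, and Mzb1, Jchain and Cd79a, of which Mzb1 and Jchain mark plasma cells, were at least 1.5-fold higher. Cd79a was at 4.62 and 5.36 and Cd79b at 4.82 and 4.97, while the B cell markers Ms4a1 and Pax5 were below the floor on both arrays. Mature macrophage markers had sums of 702 and 635 with 5 of 9 above a floor, among them Adgre1 at 8.97 and 8.72, Mrc1 at 5.86 and 5.94 and Mertk at 3.30 in WT and, below the floor, 2.79 in Nlrp6-/-. Neutrophil markers had sums of 334 and 521 with 6 of 9 above a floor, 5 of them higher and 1 lower. S100a8 and S100a9 differed by 1.16 and 1.03. Retnlg was at 3.23, below the floor, in WT and 5.21 in Nlrp6-/-, and Cxcr2 at 3.07, also below it, and 3.57. Retnlg and Cxcr2 thus entered through the Nlrp6-/- array alone, which all but fixed their direction. The lower one was Mmp8, which had the highest WT level of the list, at 7.09 in WT and 6.92 in Nlrp6-/-. Camp, Ltf and Ngp were below both floors, and Ly6g, the gene of the antigen used to remove neutrophils, was at 3.32 and 3.58. The part of these cells in the members' levels was not tested. Nlrp6 itself, at 2.32 in WT against 2.67 in Nlrp6-/-, was under both floors and gave no check of the labels.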

How the data were processed

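RNA of 1 sorted monocyte sample per genotype was measured on 2 arrays, grouped by the genotype in the labels. Per the labels' protocols, the authors amplified 10 ng of RNA and obtained probe set values with the robust multiarray average (RMA) of the oligo package in R 2.15.1. The deposited values are log2 RMA levels, with a median of 2.87 for WT and 2.84 for Nlrp6-/-. RMA includes quantile normalization, so a shift shared by all transcripts cannot be seen, and the set of arrays normalized with these 2 is not stated in the labels.

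Of 41345 probe sets, 23521 had 1 gene symbol in the platform annotation supplied with the table, 1814 several and 16010 none, and only single-symbol probe sets were used. The probe set with the highest mean of both arrays stood for a gene. All 10 members matched the RefSeq table of GRCm38.p6 by gene identifier. It served for names and for the order of neighbouring genes. Promoter windows are RefSeq's, in the same build. Sequences of the array probes were not used here, so signal shared between family copies such as Sirpa and the Sirpb1 genes cannot be judged.

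The detection floor was the 95th percentile of 1400 probe sets of olfactory and vomeronasal receptors, per array. A gene below it on 1 array counted at its bound, and list medians used measured differences of genes above a floor on at least 1 array. Summed levels add linear values over all measured markers of a list. With 1 array per genotype, precision is limited and nothing was tested.

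The members and lists were chosen with earlier results of these data known. Named genes were all members, listed genes at least 1.5-fold apart (the 4 largest where over 4 were) and the first 3 markers of each cell type. Binding partners, neighbours of Cd274 and other listed genes with smaller differences were named after their values were seen. No gene was named for a pattern like the members', since 2 arrays give only 1 difference. Results were recomputed with the median difference or a loess curve (span 0.3) subtracted, with renewed quantile normalization, with floors at the 90th or 99th percentile or none, with probe sets of a gene averaged, and with the linear floor added to both levels. Counts at 1.25-fold were added later. Scripts ran in Python 3.11.15 with pandas 2.3.3 and statsmodels 0.14.6 and were tested on simulated data.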

Additional observations from a re-analysis of the deposited data

How the results depend on the processing

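No paired analysis was possible because each genotype had 1 array, and for the same reason no replicate could be left out. Other floors and the mean of probe sets could not alter a member's difference, since each member had 1 probe set and was kept or dropped whole. Under the 4 other alternatives, which rescale the levels, each member kept the sign of its difference. Cd274 ranged from -0.45 to -0.43, Pdcd1lg2 from -0.61 to -0.43, Havcr2 from -0.44 to -0.30, Cd200r1 from -0.38 to -0.25 and Sirpa from -0.36 to -0.33. With the floor at the 99th percentile Pdcd1lg2, Havcr2 and Cd200r1 had no value, and the median of the other 7 members was -0.09. The count at least 1.5-fold lower was 1 instead of 0 after renewed quantile normalization and 1 after the loess curve was subtracted. The receptor copies had a median of 0.25, over only 2 genes above the floor, Sirpb1a and Sirpb1c. That median was -0.022 with the floor at the 90th percentile and 0.0088 with no floor, since dim copies then entered. The other costimulatory and checkpoint ligands had a median of 0.43 with the floor at the 99th percentile, where fewer genes were compared. With the linear floor added to both levels, 365 genes were at least 1.5-fold higher and 160 lower, instead of 592 and 291.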

Other observations

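Probe sets with several gene symbols lay outside the comparison. The one shared by Sirpb1b and Sirpb1a was at 8.22 in WT against 8.17 in Nlrp6-/-. The one shared by Lilr4b and Lilrb4a, inhibitory receptors of myeloid cells, was at 9.75 and 9.78, and the one shared by Irf5 and Tnpo3 at 5.82 and 5.97. Next to other members, Mcur1, near Cd83 on chromosome 13, was at 5.70 in WT against 6.26 in Nlrp6-/-, and Gtpbp8, beside Cd200r1 on chromosome 16, was at 3.84 and 3.31.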
